A study of Mus musculus with 16 samples.

Results

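*Art2b*, *P2rx7*, *Entpd1*, *Nt5e*, *Cd38*, *Adora2a* and *P2ry10* are 7 genes of extracellular ATP, adenosine and NAD sensing at the cell surface. They were found by gene symbol among 31053 genes in the lung and MLN matrices and 32285 genes in the medLN and MLN matrix, and all 7 were present in both. The genes were selected on earlier results of these data, in which the lung against MLN values were known. That contrast is therefore described without a test, whereas the sort gates, the lung-draining node and the splits of cells were compared with tests.

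All cells came from IL-4eGFP reporter (4get) mice on a C57BL/6 background, in which a green fluorescent reporter marks cells with an active *Il4* locus. All mice were infected with *Nippostrongylus brasiliensis* by subcutaneous injection of 500 third-stage larvae 10 days before analysis, and there was no uninfected group. In run 1, CD4+ IL-4eGFP+ cells were sorted from the lung and the mesenteric lymph node (MLN) of 2 mice aged 13 weeks, which gave the libraries lung 1, lung 2, MLN 1 and MLN 2. In run 2, CD4+ cells from the mediastinal lymph node (medLN) and MLN of 2 other mice aged 10 weeks were hashtag labeled and sorted into 1 IL-4eGFP+ and 1 IL-4eGFP- library, which gave 4 hashtag samples per gate. The reporter stays on after *Il4* transcription has started, and sorted lung cells can include cells that were still in blood vessels.

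Dying, stressed or activated cells release ATP and NAD. The P2X7 receptor, encoded by *P2rx7*, is an ATP-gated cation channel, and in mouse T cells the ADP-ribosyltransferase ART2.2, encoded by *Art2b*, can open it by transferring ADP-ribose from NAD to it. CD38 competes for the same NAD as a hydrolase and cyclase. CD39, encoded by *Entpd1*, degrades ATP and ADP to AMP, and CD73, encoded by *Nt5e*, turns AMP into adenosine, which acts on the adenosine receptor encoded by *Adora2a*. CD39 and CD73 are best known in T cells from regulatory T cells. *P2ry10* encodes a G protein-coupled receptor that resembles nucleotide receptors in sequence and responds to lysophosphatidylserine.

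The RefSeq start regions of 4 genes are shown because the results turn on *Art2b*, *P2rx7*, *Entpd1* and *P2ry10* (GRCm38.p6, 250 bases before to 50 bases after each start, sense strand of the gene). In the Art2b, P2rx7 and P2ry10 sequences, capitals mark the AP-1 motif TGANTCA and any other motif searched. The other motifs were the forkhead core TAAACA, the GATA motif AGATAA, the RUNX motif TGTGGT and the TCF and LEF motif CTTTGA, all read on both strands. In the sequence of the second *Entpd1* start the capitals mark the RUNX motif.

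Art2b, chr7:101581112-101581411, minus strand: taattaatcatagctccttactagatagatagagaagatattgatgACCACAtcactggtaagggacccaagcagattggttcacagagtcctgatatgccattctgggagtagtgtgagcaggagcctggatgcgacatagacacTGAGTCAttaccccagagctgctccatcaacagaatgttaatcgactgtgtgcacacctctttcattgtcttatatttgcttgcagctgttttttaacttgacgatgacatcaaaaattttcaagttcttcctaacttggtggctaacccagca
P2rx7 start 1, chr5:122643677-122643976, plus strand: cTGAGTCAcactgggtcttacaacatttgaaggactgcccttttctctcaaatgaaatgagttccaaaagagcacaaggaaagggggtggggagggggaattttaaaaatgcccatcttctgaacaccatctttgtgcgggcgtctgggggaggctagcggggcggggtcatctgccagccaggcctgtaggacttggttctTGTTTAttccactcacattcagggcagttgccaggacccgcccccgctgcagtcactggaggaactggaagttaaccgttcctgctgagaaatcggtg
P2ry10 start 1, chrX:107088242-107088541, plus strand: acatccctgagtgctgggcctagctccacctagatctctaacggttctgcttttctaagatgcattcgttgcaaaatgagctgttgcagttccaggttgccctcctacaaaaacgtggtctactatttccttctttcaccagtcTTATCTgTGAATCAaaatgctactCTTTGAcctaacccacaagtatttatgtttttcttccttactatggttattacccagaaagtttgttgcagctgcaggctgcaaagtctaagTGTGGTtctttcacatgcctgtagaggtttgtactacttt
Entpd1 start 2, chr19:40659520-40659819, plus strand: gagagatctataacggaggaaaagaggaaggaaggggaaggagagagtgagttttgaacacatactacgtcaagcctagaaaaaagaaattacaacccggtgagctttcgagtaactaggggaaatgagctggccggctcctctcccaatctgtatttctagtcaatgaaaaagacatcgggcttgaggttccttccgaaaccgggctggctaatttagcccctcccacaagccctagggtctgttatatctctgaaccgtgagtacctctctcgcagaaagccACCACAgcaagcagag

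The table of start regions held 9 regions for 6 of the 7 genes and none for *Adora2a*. An AP-1 motif was found in 3 of the 9 regions, those of *Art2b*, *P2rx7* start 1 and *P2ry10* start 1, against 7.81% of all 32851 start regions. The RUNX motif was in 4 of the 9, against 16.8% of all. GATA was in 3 (11.2% of all), TCF and LEF in 2 (16.0%) and the forkhead core in 1, *P2rx7* start 1 (13.4%). No searched motif was in the *Nt5e* region or at the first *Entpd1* start. These matches describe letters and not binding sites. In the annotation of the same build *Art2b* lies at chr7:101576970-101585600, *P2rx7* at chr5:122643911-122691432, *Cd38* at chr5:43868553-43912375, *Entpd1* at chr19:40612366-40741602, *Nt5e* at chr9:88327197-88372092, *Adora2a* at chr10:75316877-75334784 and *P2ry10* at chrX:107088492-107104974, all as protein-coding genes. The shown *Art2b* and *Entpd1* regions fall inside the annotated span of their genes.

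After filtering, 416 to 2462 cells remained per run 1 library and 1992 to 2249 per hashtag sample, with medians of 4971 to 6910 and 3166 to 3667 UMIs per cell. T cell markers were present in every group with no listed gene at 0, and *Il4* was at 153 to 188 UMIs per 1000000 UMIs of a sample (CPM) in the IL-4eGFP+ hashtag samples and at 0 to 0.399 CPM in the IL-4eGFP- samples. The 6 listed B cell markers summed to at most 46.5 CPM, and 5 of the 7 myeloid markers were at 0 in lung. The 7 myeloid markers summed to 30.1 to 116 CPM in the IL-4eGFP+ and 9.44 to 31.0 CPM in the IL-4eGFP- hashtag samples, and the 4 NK markers to 50.7 to 537 CPM and 53.6 to 183 CPM, and their part in the gate results was not tested. Kept cells shared 0 to 30 barcodes between any 2 libraries, except 113 between the 2 gates, which is 1.40% of the smaller library. As a check on free RNA, the genes were also counted in B-like barcodes of run 2. *Art2b* and *P2rx7* had 0 UMIs in 39 IL-4eGFP+ barcodes (median 3499 UMIs, which allows a share of up to 7.69%) and in 16 IL-4eGFP- barcodes (median 4153 UMIs, up to 18.8%). Among the other kept cells, *Art2b* was found in 30.1% of IL-4eGFP+ and 30.1% of IL-4eGFP- cells, and *P2rx7* in 33.3% and 9.14% (median 3343 and 3323 UMIs). With 16 barcodes the check says nothing about genes as rare as *P2rx7* in the IL-4eGFP- gate. For other genes the check cannot decide, since RNA of the B-like cells themselves and free RNA cannot be told apart. In the IL-4eGFP+ gate *Entpd1* was found in 5.13% of B-like barcodes (2 barcodes) and 3.60% of other cells. *P2ry10* was found in 12.8% (5 barcodes) and 10.7%. *Cd38* was found in 25.6% and 31.3% of the B-like barcodes of the 2 gates and in 1.54% and 0.843% of the other cells.

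*Art2b*, the NAD-dependent ADP-ribosyltransferase, was nearly missing from lung cells. It was at 4.95 and 9.32 CPM in lung 1 and lung 2 (42 and 26 UMIs) and at 106 and 140 CPM in MLN 1 and MLN 2 (1528 and 622 UMIs). Both lung libraries lay far below both MLN libraries, with a log2 fold change of -4.12. The share of cells with an *Art2b* UMI was 3.33% and 5.29% in lung and 41.8% and 52.0% in MLN. With each cell thinned to 2000 UMIs these shares were 0.936% and 1.72% against 20.2% and 26.5%. In summed counts, fewer cells with a transcript and less RNA per cell cannot be told apart.

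*P2rx7*, the ATP-gated channel, was lower in lung as well, but by much less. Its level was 64.9 and 60.2 CPM in lung and 117 and 116 CPM in MLN (log2 fold change -0.74). The 2 organs did not overlap, and the share of cells with a UMI was 32.9% and 27.2% in lung against 43.4% and 42.6% in MLN.

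The ectonucleotidases went the other way. *Entpd1* was at 21.9 and 22.2 CPM in lung and at 5.95 and 5.84 CPM in MLN (log2 fold change 2.04). *Nt5e* was at 61.2 and 65.6 CPM in lung and at 35.9 and 46.9 CPM in MLN (log2 fold change 0.77). In both genes the lung libraries lay above the MLN libraries, and the mice of 1 organ lay closer together for *Entpd1*.

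*P2ry10* had the widest excess in lung of the 7 genes. It was at 155 and 125 CPM in lung and at 25.8 and 31.2 CPM in MLN (log2 fold change 2.48), and a UMI was found in 56.9% and 46.9% of lung cells against 13.5% and 16.3% of MLN cells. *Adora2a* and *Cd38* overlapped between the organs. *Adora2a* was at 39.8 and 53.4 CPM in lung and 44.8 and 48.7 CPM in MLN. *Cd38* rested on 12 to 52 UMIs per library, with 5.07 and 4.30 CPM in lung and 3.60 and 6.96 CPM in MLN.

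Over all genes tested, 31.0% passed an edgeR adjusted p of 0.05 between lung and MLN, and nothing is read from the member counts here because the contrast chose them. Lung cells were enzyme digested and purified on percoll whereas nodes were only mashed, so organ and preparation cannot be told apart. The 8 listed dissociation genes summed to 6276 to 6774 CPM in lung and 808 to 1131 CPM in MLN. *Junb* alone was at 5378 and 4563 CPM in lung against 401 and 223 CPM in MLN, and *Fos* at 453 and 784 CPM against 47.4 and 10.6 CPM. Their part in the levels of the 7 genes was not tested.

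**Figure D1:**
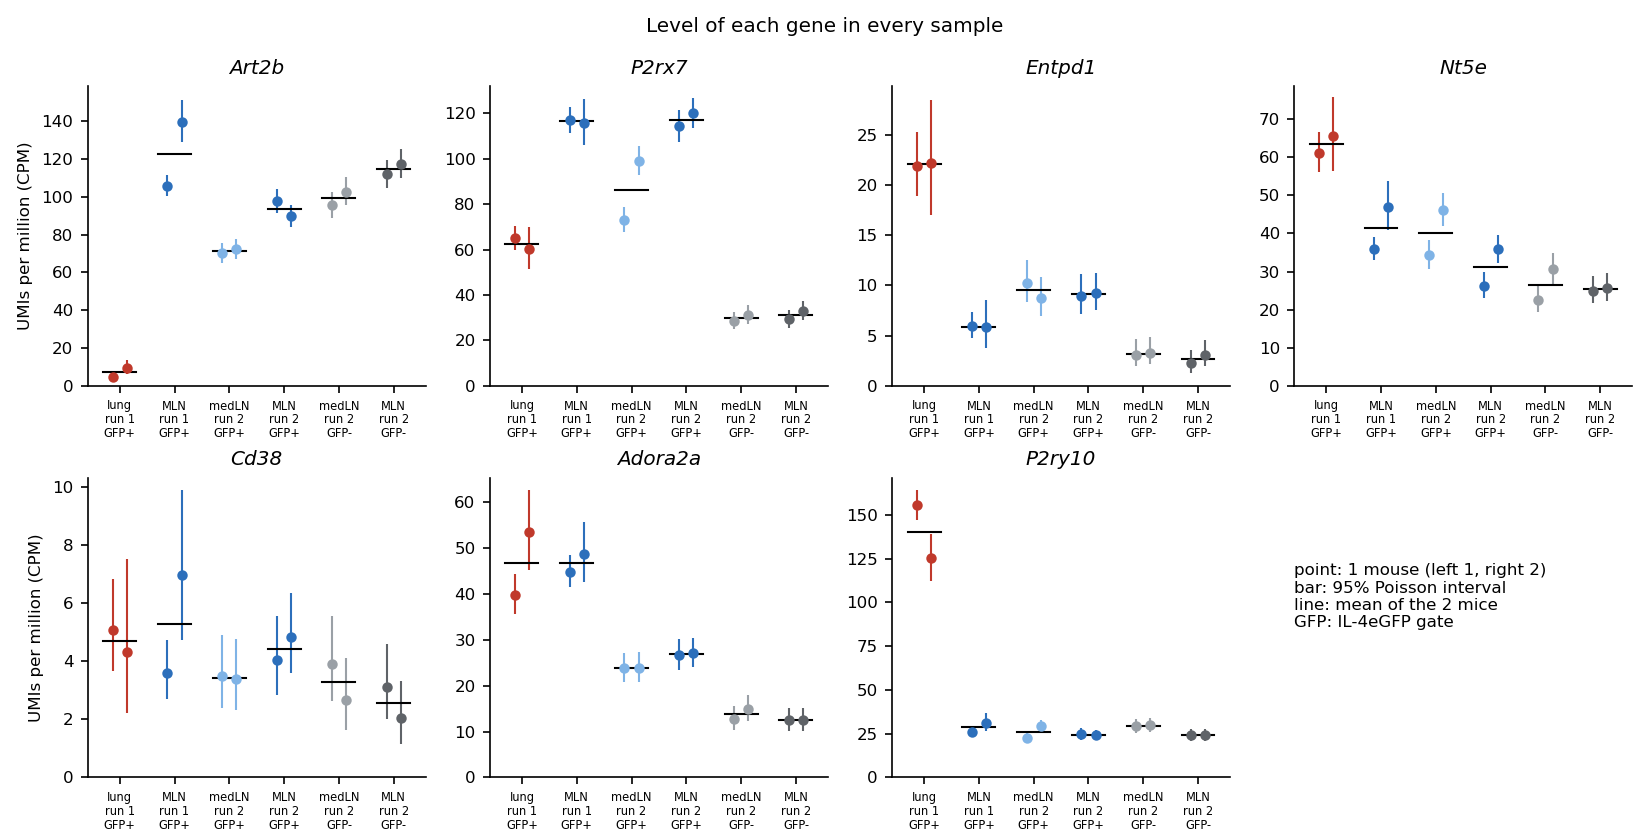
Level in CPM of each gene in the 4 run 1 libraries and the 8 hashtag samples of run 2, with 1 point per mouse, a 95% Poisson bar for counting error and a line at the mean of the 2 mice. *Art2b* is lowest and *P2ry10* highest in lung, and *P2rx7* separates the IL-4eGFP+ samples at 73.2 to 120 CPM from the IL-4eGFP- samples at 28.5 to 33.1 CPM.

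Between the sort gates of the nodes, the fitted levels of *P2rx7*, *Entpd1* and *Adora2a* were higher in IL-4eGFP+ cells, and those of *Art2b* and *P2ry10* were lower. Thus 5 of 7 genes passed the threshold (edgeR quasi-likelihood test, Benjamini-Hochberg adjusted p below 0.05, 4 samples per gate), where 62.8% of all genes tested did so in either direction. A share near that background is not a result about these genes as a group. The gate and the 10x library cannot be told apart, since each gate was 1 library.

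*P2rx7* was at 73.2 and 99.2 CPM in IL-4eGFP+ medLN and 114 and 120 CPM in IL-4eGFP+ MLN, and at 28.5, 31.3, 29.3 and 33.1 CPM in the IL-4eGFP- samples in the same order. Every IL-4eGFP+ sample lay above every IL-4eGFP- sample. Means were 102 ± 21.0 and 30.6 ± 2.03 CPM (SD, n = 4 samples each, from 2 organs of 2 mice), so the SD spans organs and mice. The fitted log2 fold change was 1.53 (SE 0.102, edgeR adjusted p = 7.98e-08). A UMI was found in 25.3% to 40.4% of IL-4eGFP+ cells and 8.21% to 10.1% of IL-4eGFP- cells, and after thinning in 14.1% to 22.6% and 4.87% to 5.94%.

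*Entpd1* was at 10.2, 8.78, 8.95 and 9.25 CPM in IL-4eGFP+ medLN 1, medLN 2, MLN 1 and MLN 2. In the IL-4eGFP- samples it was at 3.11, 3.32, 2.24 and 3.05 CPM, from 18 to 25 UMIs per sample. The gates did not overlap, with a log2 fold change of 1.47 (SE 0.147, edgeR adjusted p = 2.95e-06). *Adora2a*, the adenosine receptor, was at 23.9, 23.9, 26.6 and 27.1 CPM against 12.7, 14.9, 12.4 and 12.5 CPM. Again the gates did not overlap (log2 fold change 0.75, SE 0.0853, edgeR adjusted p = 8.98e-06).

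*Art2b* was at 70.0, 72.2, 97.7 and 89.8 CPM in IL-4eGFP+ cells and at 95.5, 103, 112 and 117 CPM in IL-4eGFP- cells. Each IL-4eGFP+ sample was below the IL-4eGFP- sample of the same mouse and organ, although the gates overlapped across organs. The log2 fold change was -0.58 (SE 0.0491, edgeR adjusted p = 6.46e-07). The share of cells with an *Art2b* UMI overlapped between the gates, at 25.9% to 35.1% of IL-4eGFP+ and 27.3% to 32.2% of IL-4eGFP- cells. After thinning it was 15.9% to 21.5% and 16.7% to 20.2%, so the lower level was not seen in these shares. *P2ry10* was at 22.7, 29.3, 24.7 and 24.0 CPM and at 29.3, 29.9, 24.0 and 24.2 CPM. Its gates overlapped, and 1 of 4 pairs was higher in IL-4eGFP+ cells (log2 fold change -0.29, SE 0.0849, edgeR adjusted p = 0.0107). The fitted differences are relative to trimmed-mean (TMM) scaling, and the *P2ry10* call was lost with DESeq2 (adjusted p = 0.0664), after thinning (-0.19, edgeR adjusted p = 0.159) and in MLN samples alone (-0.20, edgeR adjusted p = 0.158).

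*Nt5e* and *Cd38* did not pass. *Nt5e* was at 34.3, 46.1, 26.3 and 35.9 CPM in IL-4eGFP+ cells and at 22.6, 30.6, 25.0 and 25.7 CPM in IL-4eGFP- cells, higher in 4 of 4 pairs (log2 fold change 0.25, edgeR adjusted p = 0.126). With the mouse and organ sample as a replicate block it passed (0.26, edgeR adjusted p = 0.0314). A *Nt5e* UMI was found in 12.6%, 16.6%, 9.99% and 15.3% of IL-4eGFP+ cells and in 6.83%, 8.37%, 6.98% and 7.89% of IL-4eGFP- cells. After thinning the shares were 7.13%, 9.14%, 6.01% and 6.94% against 3.75%, 5.63%, 4.76% and 4.72%. The missing call of *Nt5e* therefore does not show that the gates were alike. *Cd38* rested on 16 to 51 UMIs per sample, with 3.38 to 4.81 CPM and 2.04 to 3.89 CPM (0.23, edgeR adjusted p = 0.387). These sums included the B-like barcodes. Without them *Cd38* was at 3.30, 3.19, 3.83 and 3.99 CPM in IL-4eGFP+ cells, in the same order. In IL-4eGFP- cells it was then at 2.99, 2.40, 2.99 and 1.79 CPM, a description with no test.

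The gates also held different classes of cells, and the part of this in the values was not tested separately from UMIs per cell. Cells with a UMI of *Mki67* or *Top2a*, called cycling here, were 18.1% to 21.5% of IL-4eGFP+ cells and 2.98% to 4.45% of IL-4eGFP- cells, and cells with a *Foxp3* UMI were 1.02% to 3.24% and 8.40% to 12.3%. In alternatives chosen after seeing the data, these cells were left out. Without cycling cells *Art2b* was at -0.16 (edgeR adjusted p = 0.0173), *P2ry10* at -0.09 (0.42), *Nt5e* at 0.54 (0.00301) and *Cd38* at 0.64 (0.0357) on the log2 fold change scale. Without *Foxp3* cells *Entpd1* was at 2.20 (edgeR adjusted p = 1.44e-07), *Nt5e* at 0.71 (0.00109) and *P2ry10* at -0.11 (0.313). *P2rx7* stayed between 1.36 and 1.86 and *Adora2a* between 0.62 and 1.08 in all 18 alternatives. Thinning to equal depth also brought *Art2b* to -0.17 (edgeR adjusted p = 0.0218).

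**Figure D2:**
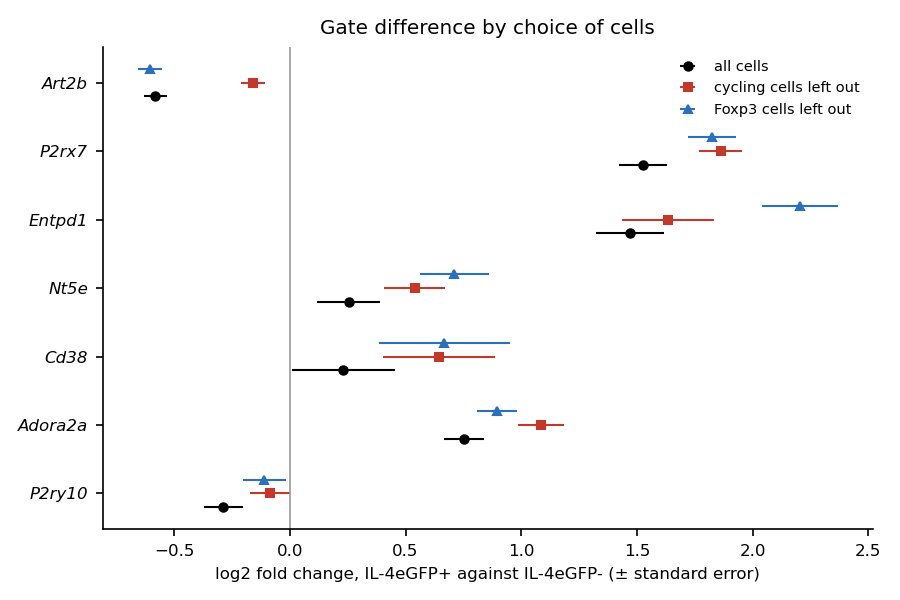
Log2 fold change of IL-4eGFP+ against IL-4eGFP- node cells with its standard error, with all cells, without cycling cells and without cells that had a *Foxp3* UMI. *P2rx7*, *Entpd1* and *Adora2a* lie above 0 in all 3, whereas *Art2b* moves from -0.58 to -0.16 without cycling cells.

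*Art2b* made up a smaller share of the UMIs of cycling cells. In IL-4eGFP+ node cells of run 2 it was at 29.0, 35.5, 57.9 and 46.2 CPM in the cycling cells of medLN 1, medLN 2, MLN 1 and MLN 2. The remaining cells were at 102, 101, 122 and 124 CPM, above the cycling cells in every sample. In the MLN libraries of run 1 the cycling cells were at 73.4 and 84.9 CPM and the others at 116 and 156 CPM. In IL-4eGFP- cells the split was narrower, with 55.9, 61.8, 108 and 83.7 CPM in cycling cells and 99.1, 107, 112 and 120 CPM in the others. *P2rx7* was lower in cycling IL-4eGFP+ node cells of run 2 (51.3, 76.3, 78.8 and 86.2 CPM against 90.2, 117, 136 and 147 CPM) but was higher in the cycling IL-4eGFP- cells of each sample, at 35.9 to 49.7 CPM against 26.6 to 32.9 CPM. These values are descriptions with no test, and cycling cells had more UMIs per cell, with medians of 6941 to 8728 in the IL-4eGFP+ samples. A lower CPM in cycling cells is thus a lower share of UMIs and need not be fewer UMIs per cell. In MLN 1 of run 2, for example, 361 of 1992 IL-4eGFP+ cells were cycling and held 3503478 of 9164065 non-TCR UMIs. Per cell, *Art2b* UMIs were fewer in cycling than in other IL-4eGFP+ node cells only in medLN 1, counting both runs.

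**Figure D3:**
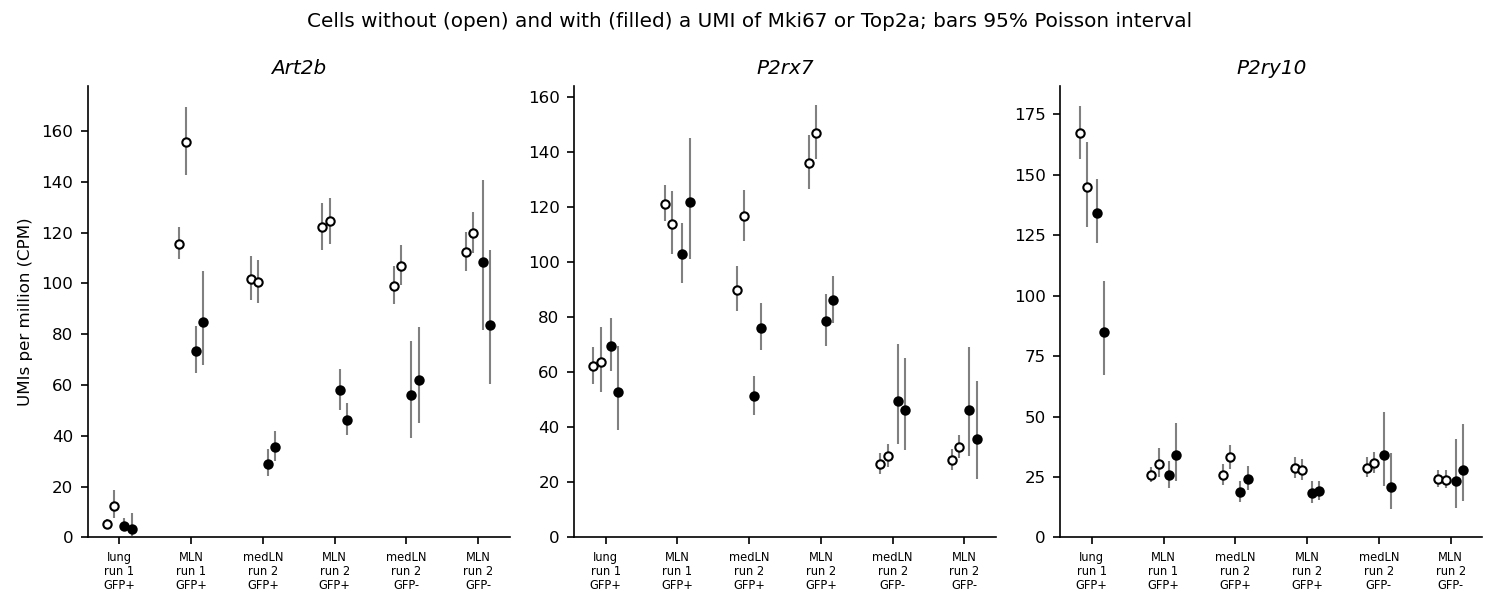
CPM of *Art2b*, *P2rx7* and *P2ry10* in cells without (open) and with (filled) a UMI of *Mki67* or *Top2a* in each library or hashtag sample, with 95% Poisson bars. As a share of UMIs, *Art2b* is lower in the cycling cells of every IL-4eGFP+ sample of run 2, at 29.0 to 57.9 CPM against 101 to 124 CPM.

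Within the IL-4eGFP- nodes, the enzymes that turn ATP into adenosine were higher in cells with a *Foxp3* UMI, the defining marker of regulatory T cells. Against all other cells of the same samples, 6 of 7 genes were higher, all except *Art2b*, where 15.2% of all genes tested were called higher. Those other cells include the naive-type cells, 33.3% to 36.6% of each sample, so the contrast is not with activated cells alone. The 6 calls were kept in each of the 11 alternatives. Each sample held 189 to 257 such cells, and the 2 sums of a sample come from 1 mouse, so p-values measure the spread between these samples.

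*Nt5e* was at 72.4, 93.0, 96.3 and 84.0 CPM in the *Foxp3* cells of medLN 1, medLN 2, MLN 1 and MLN 2. In the other cells it was at 15.7, 20.7, 18.5 and 19.0 CPM, so the ranges were far apart (log2 fold change 2.07, SE 0.124, edgeR adjusted p = 2.62e-09). *Entpd1* was at 12.8, 14.5, 7.41 and 16.1 CPM against 1.77, 1.54, 1.76 and 1.56 CPM, from 5 to 15 UMIs in the *Foxp3* cells. MLN 1 lay below the other samples but above all values of other cells (log2 fold change 2.78, SE 0.323, edgeR adjusted p = 5.02e-06).

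*P2rx7* was at 75.6, 67.8, 84.5 and 90.1 CPM in *Foxp3* cells and at 22.0, 25.4, 24.3 and 26.5 CPM in the others (log2 fold change 1.54, SE 0.112, edgeR adjusted p = 2.8e-08). *Cd38* was at 7.45, 8.72, 11.9 and 9.88 CPM against 3.40, 1.70, 2.31 and 1.14 CPM, from 7 to 9 UMIs in the *Foxp3* cells (log2 fold change 1.95, SE 0.397, edgeR adjusted p = 0.00127). B-like barcodes were not left out of these sums, and their part in the *Cd38* values was not tested. *P2ry10* was at 50.0, 49.4, 68.2 and 58.0 CPM against 26.5, 26.8, 19.9 and 20.3 CPM (log2 fold change 1.09, SE 0.149, edgeR adjusted p = 2.87e-05). *Adora2a* was at 24.5, 28.1, 23.7 and 19.8 CPM against 11.1, 12.8, 11.4 and 11.6 CPM (log2 fold change 0.89, SE 0.172, edgeR adjusted p = 0.000816). The values of these 4 genes did not overlap between the classes. The share of all genes tested that separate in this way is not given, so this only describes the values.

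*Art2b* overlapped. It was at 87.3, 86.2, 105 and 136 CPM in *Foxp3* cells and at 96.6, 105, 113 and 115 CPM in the others, lower in 3 of 4 pairs (log2 fold change -0.21, edgeR adjusted p = 0.134). The high value was that of MLN 2, and without that sample *Art2b* was called lower (-0.35, edgeR adjusted p = 0.0259).

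**Figure D4:**
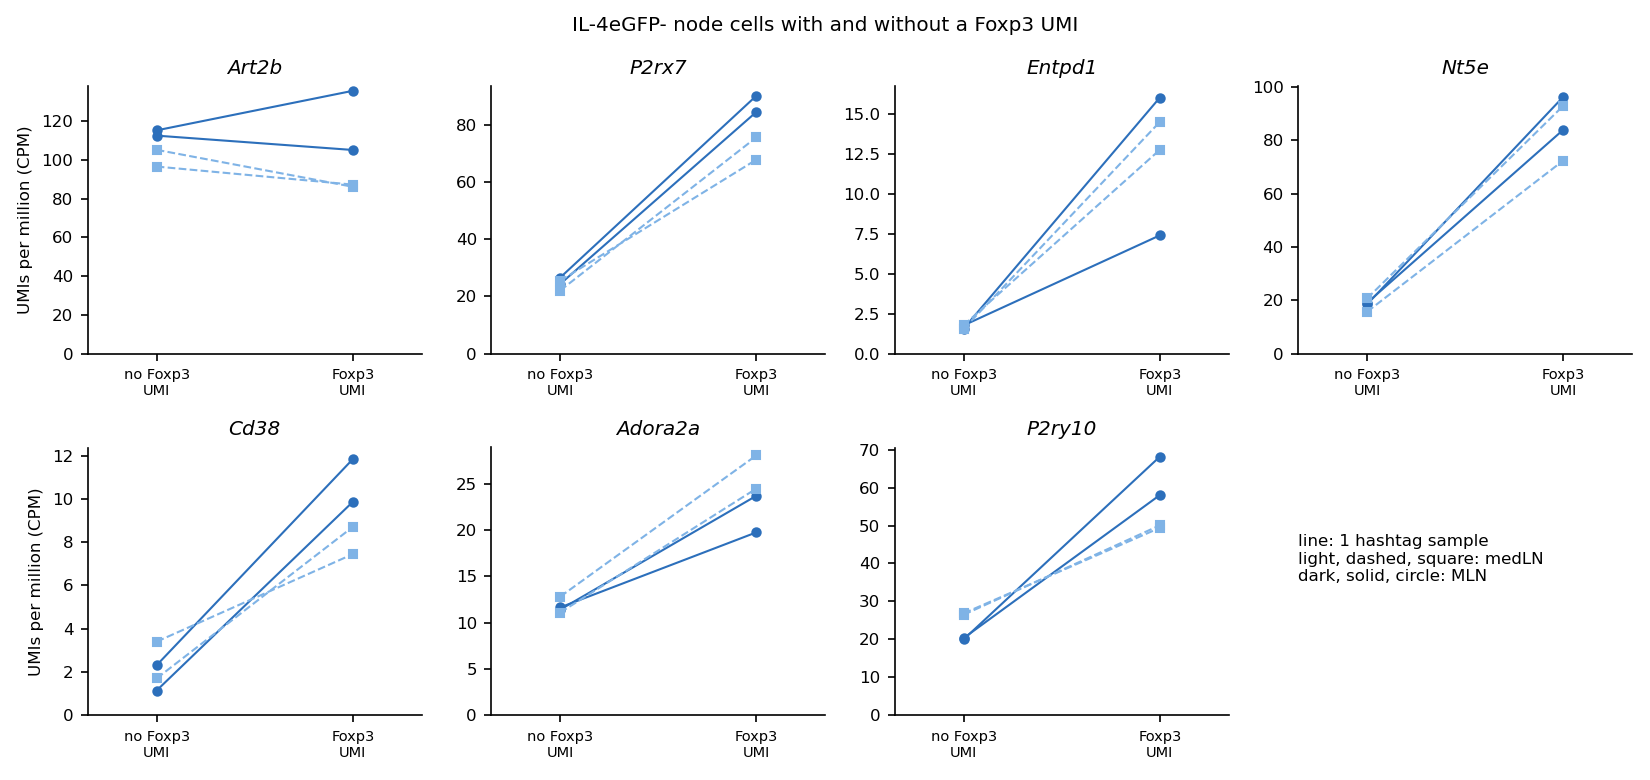
CPM of each gene in IL-4eGFP- node cells without and with a *Foxp3* UMI, with 1 line per hashtag sample. For all genes but *Art2b* every line rises, and for *Nt5e* the lines go from 15.7 to 20.7 CPM up to 72.4 to 96.3 CPM.

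Follicular-type cells, with UMIs of *Cxcr5* and of *Bcl6* or *Il21*, nearly lacked *Entpd1* and had more *P2rx7* than other IL-4eGFP+ node cells. These genes and *Art2b* made 3 of 7 calls, where 15.4% of all genes tested were called in either direction. Such cells numbered 138 to 213 per sample, with medians of 3794 to 4552 UMIs. *Entpd1* had 2, 0, 2 and 1 UMIs in the follicular-type cells of medLN 1, medLN 2, MLN 1 and MLN 2, which is 3.00, 0, 1.94 and 0.803 CPM. The upper exact 95% Poisson bounds were 10.8, 7.02 and 4.48 CPM in medLN 1, MLN 1 and MLN 2, the 0 UMIs of medLN 2 allow up to 3.09 CPM (3 counts), and these limits cover counting error only. The other cells were at 10.8, 9.78, 9.83 and 10.4 CPM. Of these limits, that of medLN 1 reached the level of its other cells (fitted log2 fold change -2.99, SE 0.435, edgeR adjusted p = 0.000128). In run 1, with no test, 262 and 81 follicular-type MLN cells held 0 UMIs of *Entpd1*, whereas the other MLN cells were at 6.82 and 6.74 CPM. These follicular-type cells held 1823028 and 596137 UMIs of non-TCR genes, so the 0 UMIs of MLN 2 are a weak limit. Lung 1 held 2 follicular-type cells and lung 2 none.

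*P2rx7* was at 122, 146, 151 and 156 CPM in follicular-type cells and at 69.5, 93.8, 110 and 115 CPM in the others. It was higher in 4 of 4 pairs and the ranges did not overlap (log2 fold change 0.55, SE 0.103, edgeR adjusted p = 0.00129). *Art2b* was at 82.6, 92.6, 136 and 105 CPM against 69.1, 69.9, 92.8 and 87.7 CPM, higher in 4 of 4 pairs with overlapping ranges (log2 fold change 0.36, SE 0.0833, edgeR adjusted p = 0.0066). Without cycling cells *Art2b* was at 0.06 (edgeR adjusted p = 0.807), and it did not pass without MLN 1 or without medLN 2 or after thinning. *Nt5e*, *Adora2a*, *P2ry10* and *Cd38* did not pass, with log2 fold changes from -0.33 to 0.35.

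Cells with a UMI of *Il1rl1*, which encodes the IL-33 receptor ST2 found on effector Th2 cells, were compared in the same way. In IL-4eGFP+ nodes *Entpd1* was higher and *Art2b* lower in them, 2 of 7 genes, where 26.1% of all genes tested were called. A share near that background is not a result about the genes as a group. *P2rx7* did not pass (log2 fold change -0.0095, edgeR adjusted p = 0.978). *Entpd1* was at 28.6, 29.4, 50.0 and 32.4 CPM in the *Il1rl1* cells of medLN 1, medLN 2, MLN 1 and MLN 2, from 20 to 32 UMIs. The other cells were at 8.78, 6.65, 6.68 and 6.87 CPM, and no value overlapped (log2 fold change 2.26, SE 0.21, edgeR adjusted p = 8.21e-07). In the same samples *Entpd1* did overlap between cells with and without a UMI of *Il5* or *Il13*, as described at the end. Cells with a *Foxp3* UMI, 1.02% to 3.24% of these samples, were not left out, and their part was not tested. *Art2b* was at 28.6, 23.8, 41.7 and 56.7 CPM in *Il1rl1* cells and at 73.3, 77.2, 101 and 93.2 CPM in the others. All *Il1rl1* sums lay below all other sums (log2 fold change -1.12, SE 0.137, edgeR adjusted p = 1.5e-05). *Il1rl1* cells numbered 70 to 125 per sample and had medians of 5017 to 6364 UMIs, more than their whole samples.

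In run 1 *Il1rl1* cells made up 70.0% and 53.8% of lung cells and 3.29% and 4.91% of MLN cells. *Entpd1* was at 26.9 and 35.1 CPM in the *Il1rl1* cells of lung and at 42.4 and 19.6 CPM in those of MLN. Outside this class it was at 8.90 and 7.63 CPM in lung and 4.27 and 4.82 CPM in MLN. All 4 sums of the class lay above all 4 of the other cells (log2 fold change of the class 2.42, SE 0.285, edgeR adjusted p = 0.000606). *Entpd1* was the only member of 7 that passed, where 4.16% of all genes tested did. The lung against MLN values of these libraries were known when the genes were chosen, and the class was far more frequent in lung. Tests of the class in these libraries are therefore not independent of that choice. *Art2b* was at 1.14 and 3.38 CPM in lung *Il1rl1* cells, at 14.8 and 16.0 CPM in the other lung cells, at 66.0 and 91.4 CPM in MLN *Il1rl1* cells and at 108 and 143 CPM in the other MLN cells. It was lower in the class in 4 of 4 libraries but did not pass (log2 fold change -1.28, edgeR adjusted p = 0.0731), and passed with DESeq2 (-1.55, adjusted p = 0.0242), without the filter on low counts (edgeR adjusted p = 7.93e-09), without cycling cells (edgeR adjusted p = 0.0324) and in lung libraries alone (-3.11, edgeR adjusted p = 0.00738). Within either class both lung libraries were below both MLN libraries in *Art2b*, a description with no test.

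*P2ry10* was higher in lung than in MLN in both classes, which only describes the contrast that chose the genes. It was at 163 and 134 CPM in the *Il1rl1* cells of lung against 18.8 and 16.3 CPM in those of MLN, and at 135 and 115 CPM against 26.1 and 32.3 CPM in other cells. *P2rx7* moved with the class in opposite directions by organ, at 59.4 and 49.3 CPM in lung *Il1rl1* cells against 79.2 and 72.5 CPM in other lung cells, and at 152 and 153 CPM in MLN *Il1rl1* cells against 115 and 113 CPM in other MLN cells. Over both organs it was near 0 (log2 fold change 0.04, edgeR adjusted p = 0.977).

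**Figure D5:**
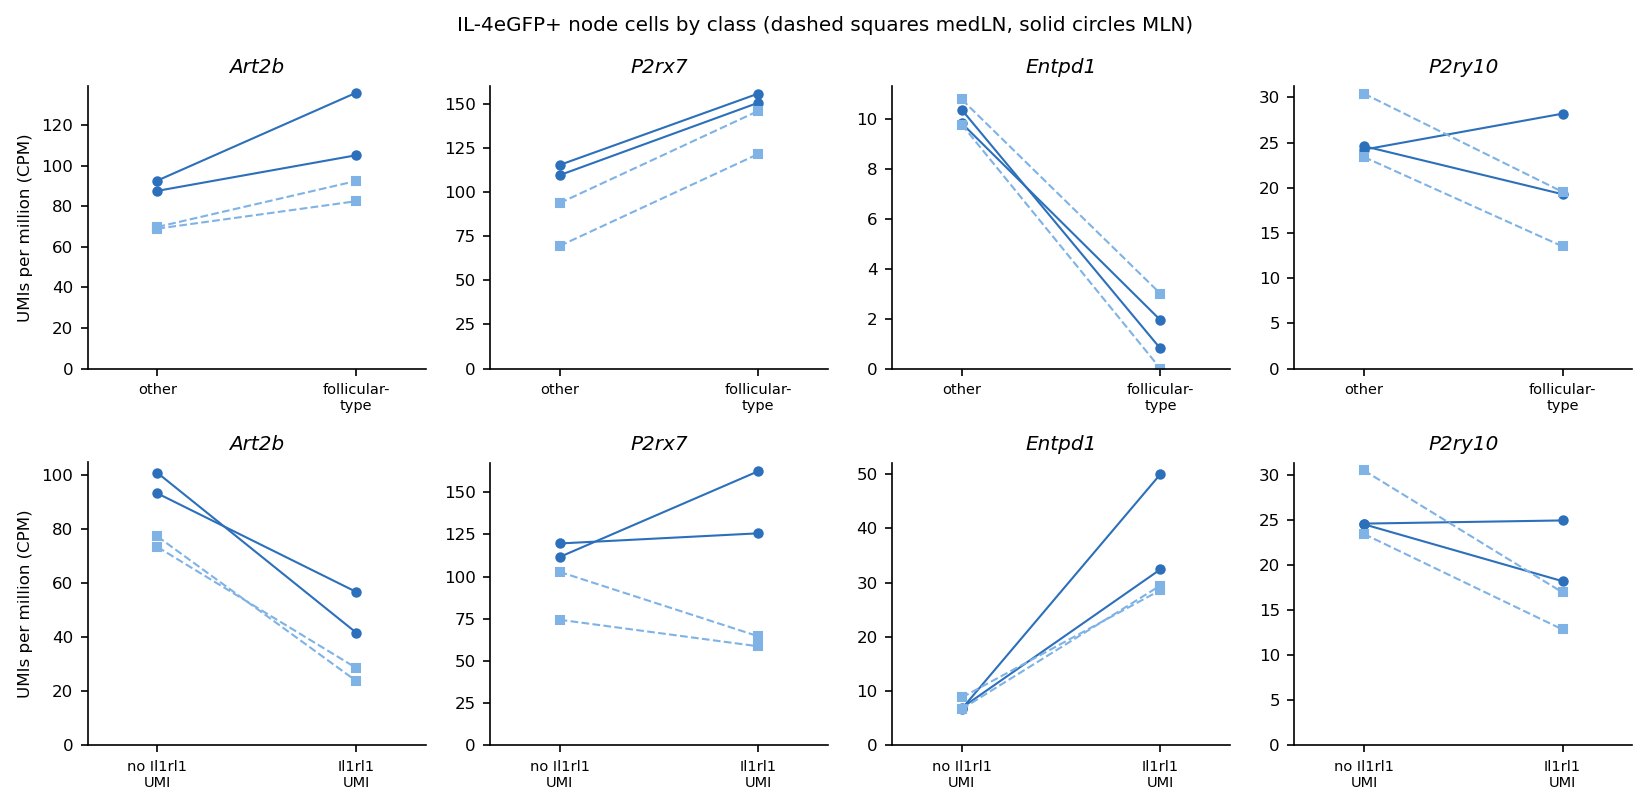
CPM of *Art2b*, *P2rx7*, *Entpd1* and *P2ry10* in IL-4eGFP+ node cells by class, follicular-type against other cells in the top row and cells with against without an *Il1rl1* UMI in the bottom row, with 1 line per hashtag sample. *Entpd1* falls to 0 to 3.00 CPM in follicular-type cells and rises to 28.6 to 50.0 CPM in *Il1rl1* cells.

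Between the lung-draining medLN and the gut-draining MLN few calls were made among the 7 genes. With 2 samples per organ in each gate, a gene without a call can still differ. In IL-4eGFP+ cells 1 of 7 passed, where 1.28% of all genes tested did. *Art2b* was at 70.0 and 72.2 CPM in medLN and 97.7 and 89.8 CPM in MLN, with no overlap (log2 fold change -0.41, SE 0.0678, edgeR adjusted p = 0.0317). This call was not kept with DESeq2 (adjusted p = 0.0725), without the filter (edgeR adjusted p = 0.106), without cycling cells (0.0749), or when any 1 of the 4 samples was left out (0.052 to 0.268). *P2rx7* was at 73.2 and 99.2 CPM in medLN and 114 and 120 CPM in MLN (log2 fold change -0.46, edgeR adjusted p = 0.155), and passed with mouse as a replicate block (-0.46, edgeR adjusted p = 0.0497) and after thinning (-0.57, edgeR adjusted p = 0.0156). Leaving out 1 sample moved it from -0.26 without medLN 1 to -0.68 without medLN 2, with edgeR adjusted p of 0.54 and 0.0578.

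In IL-4eGFP- cells none of the 7 passed by edgeR, where 0.178% of all genes did and 666 genes had an unadjusted p below 0.05. *Art2b* was at 95.5 and 103 CPM in medLN and 112 and 117 CPM in MLN, with no overlap (log2 fold change -0.27, edgeR adjusted p = 0.396). DESeq2 also called 0 of 7. For the difference between the organ effects of the 2 gates, edgeR and DESeq2 each called 0 of 7 genes, where 0.156% of all genes passed by edgeR and 807 had an unadjusted p below 0.05. For *Art2b* this difference was -0.13 and for *P2rx7* -0.33 (edgeR adjusted p = 0.852 and 0.787).

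Of 63 other genes of these pathways, which were listed with earlier results of these data known, 61 were in both runs. Between lung and MLN 30 passed the filter on low counts, and 9 were higher and 4 lower in lung at an edgeR adjusted p below 0.05 (31.0% of all genes in either direction, median log2 fold change 0.05, over all genes -0.01). Since earlier lung and MLN values were known when the list was made, these counts are no independent evidence. *P2ry14*, a receptor for UDP-sugars, was at 10.5 and 11.1 CPM in lung against 0.831 and 1.57 CPM in MLN (log2 fold change 3.49). The ATP-gated channel *P2rx4* was at 1.13 and the ADP receptor *P2ry1* at 1.30 on the log2 fold change scale, and *P2ry1* did not pass with DESeq2, after thinning, without MLN 1 or without lung 2. The lysophosphatidylserine receptor *Gpr34* was at 2.43 and *Slc28a2*, a nucleoside transporter, at -1.40. *Adora2b* had 19 and 6 UMIs in lung and 0 in both MLN libraries, which allows up to 0.208 and 0.674 CPM (3 counts).

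Between the gates 12 pathway genes were higher and 12 lower of 33 tested (62.8% of all genes in either direction, median -0.02, over all genes -0.02). *Casp1*, the protease activated downstream of P2X7, was at 55.0 ± 2.02 CPM in IL-4eGFP+ and 11.5 ± 1.05 CPM in IL-4eGFP- samples (log2 fold change 2.06). These are SD over n = 4 samples each, from 2 organs of 2 mice. *Slc17a9*, the vesicular nucleotide transporter, was at 17.0 to 22.1 CPM against 61.4 to 64.5 CPM (-1.86). *Naprt*, an enzyme of NAD synthesis, was higher (2.04), and *Art4* (-2.75), *Art3* (-2.91), *Gpr34* (-1.29) and *P2ry10b*, the neighboring copy of *P2ry10* (-1.25), were lower. In *Foxp3* cells 5 of 28 were higher (15.2% of all genes), among them *Naprt* (2.83), *Gpr34* (1.88) and *Casp1* (1.14), and 2 were lower, *Entpd5* (-1.23) and *Entpd6* (-0.77). The median was 0.01, and -0.01 over all genes. In follicular-type cells 3 of 27 were higher and 4 lower (15.4% of all genes in either direction), with *Slc17a9* at -1.59 and *Ada*, which degrades adenosine, at -1.47 (median 0.02, over all genes 0.00). In *Il1rl1* cells of the nodes 7 of 29 were higher and 2 lower (26.1% of all genes in either direction), with *P2ry14* at 2.35, *P2rx4* at 1.00 and *Slc28a2* at -1.59 (median 0.00, over all genes -0.02). The *P2ry14* call was lost without MLN 2 and without medLN 1, and that of *P2rx4* after thinning and without cycling cells. In *Il1rl1* cells of run 1, *P2ry14* was higher (1.71) and *Slc28a2* lower (-0.92) of 28 tested, where 4.16% of all genes were called. The *P2ry14* call was lost without MLN 1, MLN 2 or lung 1 (edgeR adjusted p up to 0.33), and that of *Slc28a2* without lung 1 (0.0565). No pathway gene passed between medLN and MLN in either gate by edgeR or DESeq2.

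Over the 12 samples, centered within each run, the patterns most like those of the 7 genes were listed among 7153 genes with at least 10 CPM on average in each run. *Art2b* was closest to *Xylt2* (Pearson r = 0.989), *Cbl* and *A230050P20Rik*, and *P2rx7* to *Cmc2*, *Minos1* and *Pomp*. *Entpd1* was closest to *Rps6ka5* (0.989), *S100a13* and the chemokine receptor *Ccr2*. *Adora2a* was closest to *Taok3* (0.988), and *P2ry10* to *Nfkbia* (0.993), *Nabp1* and *D16Ertd472e*. *Nt5e* (*Tab2*, 0.931) and *Cd38* (*Mxd4*, 0.892) had looser matches. The 12 points share 2 runs, 6 libraries and 4 mice, so these values are descriptions.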

How the data were processed

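Single-cell 5′ libraries were read as UMI counts per gene and cell, which the authors made with Cell Ranger and deposited as unnormalized count matrices. The submitters' processing notes name Cell Ranger 2.1.1, 3.0.1 and 6.1.2 and the mouse build mm10. The authors combined 2 sequencing runs per library. Gate in run 2 was read from the barcode ending that carries the library number in the sample titles.

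Cells were kept above 500 UMIs and 500 genes, below 7% mitochondrial UMIs and above a novelty of 0.8 (log genes over log UMIs), and in run 1 with a productive TCR alpha and beta chain, following the filters of the study. Hashtags were called with HTODemux (Seurat 5.3.0, positive quantile 0.99), which removed 1256 and 1280 doublets and 52 and 70 unlabeled cells in the IL-4eGFP+ and IL-4eGFP- libraries. In run 1, cells with extra TCR chains were kept and were left out in an alternative, and no doublet caller was run. Kept cells summed to 2798232 to 14512767 UMIs per library or hashtag sample, and intervals cover counting error only.

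UMIs were summed per mouse sample and class and tested with edgeR 4.0.16 (R 4.3.3, TCR genes left out, filterByExpr, TMM scaling, quasi-likelihood, Benjamini-Hochberg over all genes tested, threshold 0.05). Levels are CPM of the sum. The SE of an edgeR fit is the absolute log2 fold change divided by the square root of the F statistic. With 2 mice per run, p-values measure the spread between these samples. Classes of cells are defined by UMIs of marker genes. Alternatives were DESeq2 1.42.0, edgeR scaled by the DESeq2 size factors, all genes in place of the filter, thinning to 2000 UMIs per cell, another hashtag call (top hashtag at least 3 times the next), the TCR filter, single organs, a replicate block and leaving out each sample. Leaving out cycling or *Foxp3* cells was chosen after seeing the data. Where 1 sample was left in an arm, it was assumed to vary like the others.

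Organs and gates of 1 number came from the same mouse, so the replicate numbers pair the samples. The correlation of deviations from the group means of same-numbered samples was 0.235 between medLN and MLN in the IL-4eGFP+ gate and 0.117 in the IL-4eGFP- gate. The fits were tested on simulated data. The 7 genes and all gene lists were chosen with earlier results of these data known. Besides them, pathway genes past the threshold (at most the 10 with the largest change per comparison) and the 3 genes most like each of the 7 in pattern could be named. Reads of close copies (*P2ry10b* for *P2ry10*, and *Art2a*, not analysed here, for *Art2b*) could be split between genes.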

Additional observations from a re-analysis of the deposited data

Results flagged for a closer look

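Of 56 groups of 4 samples checked, 3 held a sample far from the other 3, and chance gives about 1 in 20. *Adora2a* in IL-4eGFP- node samples was at 14.9 CPM in medLN 2 and at 12.4 to 12.7 CPM in the others. *Entpd1* in IL-4eGFP+ node cells without an *Il1rl1* UMI was at 8.78 CPM in medLN 1 and at 6.65 to 6.87 CPM in the others. *P2ry10* in the same cells was at 30.6 CPM in medLN 2 and at 23.5 to 24.6 CPM in the others.

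The log2 ratio of *P2rx7* in cells with an *Il1rl1* UMI to other cells had opposite signs in different organs in both mice of each run. In run 2 it averaged 0.31 in IL-4eGFP+ MLN (0.07 and 0.54) and -0.51 in IL-4eGFP+ medLN (-0.67 and -0.34). In run 1 it averaged 0.42 in MLN (0.40 and 0.44) and -0.48 in lung (-0.56 and -0.41). The same ratio of *P2ry10* in run 1 averaged -0.73 in MLN (-0.99 and -0.47) and 0.24 in lung (0.22 and 0.27). These differences between organs were not tested.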

How the results depend on the processing

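Among the fold changes of the 7 genes under alternatives, 262 kept their direction and side of the threshold, 16 lost a call, 11 gained one and 1 changed direction: *Art2b* in *Foxp3* cells was at 0.0062 without cycling cells. *Pycard* also changed direction without cycling cells, to 0.024 in follicular-type and -0.011 in node *Il1rl1* cells, and the cause was not tested. Between medLN and MLN in IL-4eGFP+ cells 1 of the 7 genes was called, 0 with DESeq2, without the filter and without cycling cells, 2 after thinning and 2 with the replicate block, and 0 whichever sample was left out. For *Il1rl1* cells of run 1 the count of 1 became 2 with DESeq2, without the filter, without cycling cells and in lung libraries alone. The 13 pathway genes called between lung and MLN became 8 after thinning and 8 to 15 when 1 library was left out, 8 without MLN 1. Leaving out 1 sample gave 5 to 6 calls between the gates, 6 to 7 in *Foxp3* cells, 2 to 3 in follicular-type cells and 2 in node *Il1rl1* cells. Mouse or hashtag sample as a replicate block changed the calls of *P2rx7* between medLN and MLN (-0.46) and of *Nt5e* between the gates (0.26), and no other call of the 7 genes.

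Counts over all genes moved more. Between medLN and MLN in IL-4eGFP+ cells 144 genes became 47 without the filter, 13 without medLN 1 and 49 without medLN 2. In IL-4eGFP- cells 19 became 2 without the filter, 8 after thinning, 65 with the block, 12 without cycling and 6 without *Foxp3* cells, and 98 to 194 when 1 sample was left out. The organ effect between gates went from 18 to 34 with DESeq2, 68 without the filter, 8 after thinning, 81 with the block, 10 without *Foxp3* cells and 4 to 13 when 1 sample was left out. After thinning, 2746 became 1687 in *Foxp3* cells, 1617 became 744 in follicular-type cells, and 2743 became 1351 in node *Il1rl1* cells (1537 without cycling cells). For *Il1rl1* cells of run 1, 381 became 861 without the filter, 182 after thinning, 188 in lung, 630 in MLN and 163 to 344 when 1 library was left out. Between lung and MLN 3284 became 1687 with DESeq2, 2067 after thinning and 1907 without MLN 1. The 2 mice per group, single libraries per gate and few UMIs of *Cd38* and *Entpd1* limit the precision.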

Other observations

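Other classes of cells, described without a test, differed in the same genes. *Art2b* was low in IL-4eGFP+ node cells with a UMI of *Il5* or *Il13*, cytokines of effector Th2 cells, at 11.7, 3.64, 33.1 and 20.5 CPM in medLN 1, medLN 2, MLN 1 and MLN 2, from 2 to 18 UMIs. The other cells were at 74.5, 76.5, 99.0 and 96.0 CPM, above the class in every sample. *Entpd1* in the same cells overlapped, at 5.85 to 16.5 CPM from 3 to 8 UMIs against 8.53 to 10.6 CPM. In lung, cells with *Il5* or *Il13* held 4 UMIs of *Art2b* in 351 cells and 1 UMI in 88 cells.

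In MLN of run 1, cells with an invariant TCR alpha chain (45 and 20 cells) had *Cd38* at 31.3 and 65.2 CPM (8 and 6 UMIs) against 3.10 and 5.73 CPM in the other cells, and *Art2b* at 168 and 283 CPM against 105 and 137 CPM. *P2ry10* had 1 UMI in each of these classes.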
